A study of Homo sapiens with 19 samples.

Results

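Imprinted genes are expressed mainly from the maternal or mainly from the paternal copy of a chromosome. The 10 imprinted genes *H19*, *IGF2*, *CDKN1C*, *PEG3*, *PEG10*, *DLK1*, *MEST*, *SNRPN*, *NNAT* and *PLAGL1* were followed over the first 72 h in which pluripotent human embryonic stem cells (hESCs) were driven toward a brown adipocyte (BA) fate. They were chosen by name, and were found through the RefSeq accession of the array's probes, which matched 14 probes to these 10 genes of the 20499 gene symbols on the array. The cells were KhES-3, an established hESC line. The sample labels describe maintenance on irradiated mouse fibroblast feeders with bFGF, whereas the methods of the study describe feeder-free maintenance. All samples received the same BA differentiation treatment, that is, a low-attachment dish and a serum-free medium with insulin, transferrin, selenium and the cytokines IGF-II, BMP4, VEGFA, KITLG, FLT3LG and IL-6, so that the protein made by *IGF2* was itself in the medium. 1 sample was taken at each of 19 time points from 3 to 72 h after the induction, with no sample of undifferentiated cells and no replicates, and its RNA was hybridized to a one-colour Agilent array. Each trend was therefore judged by how far single arrays lay from its fitted line. The arrays measured the total RNA of a gene, not which parental copy it came from, and not DNA methylation. In a bulk sample, fewer cells with a transcript and less of it per cell cannot be told apart.

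Imprinting rests on DNA methylation that is laid down in the egg or the sperm at control regions rich in CpG, and that is kept on 1 copy through the divisions of the embryo. Many imprinted genes act on growth: the paternally expressed *IGF2* encodes a growth factor, and the maternally expressed *CDKN1C* encodes the cell cycle inhibitor p57. Of the 10 genes, 8 are expressed from the paternal copy and 2, *H19* and *CDKN1C*, from the maternal copy. Several of them are used in studies of fat: *DLK1*, also called preadipocyte factor, restrains adipocyte differentiation, and *MEST* rises with adipocyte enlargement. Gene positions are those of GRCh38.p14. *H19* (chr11:1995176-2001266), *IGF2* (chr11:2129117-2149566) and *CDKN1C* (chr11:2883218-2885775) lie on one chromosome arm. *MEST* (chr7:130486175-130506465) and *PEG10* (chr7:94656325-94669695) are both on chromosome 7. The others are *PLAGL1* (chr6:143940300-144064599), *DLK1* (chr14:100726892-100738224), *SNRPN* (chr15:24823637-24978723), *PEG3* (chr19:56810082-56840726) and *NNAT* (chr20:37521250-37523690).

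*MEST* had the steepest passing slope of the 10 genes, and *SNRPN* shares a start with *SNURF*. The promoters of *MEST*, *SNRPN* and *H19* are shown because CpG is the letter pair that imprints are written on. For each, the 250 bases before a transcription start are given 5′ to 3′ from RefSeq on GRCh38.p14, with every CpG in capitals. Where a gene had several starts, the window with the most CpG was taken among those with no other start of the gene inside. The windows are chr7:130491808-130492057 on the plus strand, chr15:24954737-24954986 on the plus strand and chr11:2001267-2001516 on the minus strand. 4 of the 10 genes had a window in the table used here.
MEST: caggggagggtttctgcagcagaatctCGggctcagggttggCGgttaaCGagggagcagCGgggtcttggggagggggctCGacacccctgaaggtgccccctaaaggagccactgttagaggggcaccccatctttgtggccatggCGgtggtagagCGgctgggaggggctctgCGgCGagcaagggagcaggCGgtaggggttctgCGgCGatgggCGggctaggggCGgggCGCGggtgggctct
SNRPN and SNURF: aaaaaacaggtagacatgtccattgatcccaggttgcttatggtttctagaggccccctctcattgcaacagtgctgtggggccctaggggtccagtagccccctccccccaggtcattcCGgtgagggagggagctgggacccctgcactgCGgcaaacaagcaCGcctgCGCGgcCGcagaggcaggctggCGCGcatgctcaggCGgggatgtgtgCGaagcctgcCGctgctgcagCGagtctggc
H19: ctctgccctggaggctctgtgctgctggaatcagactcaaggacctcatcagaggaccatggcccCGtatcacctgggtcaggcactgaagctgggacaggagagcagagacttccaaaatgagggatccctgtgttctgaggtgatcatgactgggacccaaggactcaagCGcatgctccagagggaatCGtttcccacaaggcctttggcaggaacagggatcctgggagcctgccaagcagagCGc

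There were 16 CpG in the *MEST* window, and 41.0% of the 35116 windows of this length held at least as many, against a median of 11. The *SNRPN* window held 12 (48.5% of windows held at least as many) and 4 stood in the *H19* window (70.7%). The 6-letter motif TGCCGC, searched on both strands, is the motif that ZFP57, a zinc finger protein that protects imprints, is known to read when it is methylated. It stood 2 times in the *SNRPN* window and in neither of the other two, and 12.7% of all windows held it at least once. These are counts of letters, and methylation was not measured. 2 of the genes also carry a microRNA within their bounds, *MIR335* in *MEST* and *MIR675* in *H19*. Their main mature forms are printed with the seed, bases 2 to 8, in capitals, because the seed decides which messengers a microRNA pairs with. No probe of the array was matched to either.
hsa-miR-335-5p: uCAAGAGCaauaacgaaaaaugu
hsa-miR-675-5p: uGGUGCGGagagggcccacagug

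All 10 genes were detected. For 9 of them the brightest probe was well above background on all 19 arrays, and *PLAGL1* was so on 9. Every array's signals were brought to one 75th percentile, 725.1, which is that of the 8 h array. The slope of the log2 signal on hours passed an adjusted p of 0.05 in 4 of the 10: *IGF2* and *PLAGL1* rose, and *MEST* and *NNAT* fell. Of the 16692 genes tested, 21.3% rose and 32.7% fell, so that 2 and 2 of 10 lie close to the background. The median slope was 0.00039 log2 per hour for the 10 genes and -0.0012 for all genes. A cubic curve in hours, which also takes in rises and falls that turn, passed for 8 of the 10, all but *CDKN1C* and *PEG3*, beside 79.5% of all genes.

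The arrays lay on 3 slides, the first with 3 to 12 h (6 arrays), the second with 14 to 42 h (8 arrays) and the third with 48 to 72 h (5 arrays, scanned on a later day). Between 49.6% and 64.7% of probes were well above background on an array. Slide and time overlap. With the slide fitted as a block, 0 of the 10 genes rose (4.22% of all genes) and 1, *MEST*, fell (5.33%), while the cubic curve passed for *IGF2*, *MEST* and *SNRPN* (36% of all genes). At an unadjusted p, the 95% interval of the blocked slope also lay above 0 for *IGF2* (0.0032 to 0.0447) and below 0 for *NNAT* (-0.0157 to -0.0017). Within single slides 0 of the 10 genes passed in either direction, where 5.24%, 7.31% and 1.39% of all genes did.

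Scaling also moved the counts. With the array median as scaling 0 of the 10 genes rose (9.78% of all genes) and 4 fell (46.1%), and with the spike-in RNA added to every sample 0 rose (3.59%) and 3 fell (44.5%). *MEST* and *NNAT* were among the falling genes in both, joined by *PEG3* in both and by *SNRPN* under the median. From 3 to 54 h *PLAGL1* rose (20.3% of all genes), and *H19*, *MEST* and *NNAT* fell (30.9%), and the same 4 genes passed without the 66 and 72 h arrays (20.3% rising and 30.8% falling among all genes). Between the mean of 3, 4 and 6 h and the mean of 60, 66 and 72 h, the median gene moved by -0.11 log2 under the 75th percentile, by -0.45 under the array median and by -0.70 under the spike-in RNA. Relative to the median gene, a difference that a constant per array cannot alter, *IGF2* moved by 1.01, *PLAGL1* by 0.70, *NNAT* by -0.52 and *MEST* by -0.88 log2. After quantile normalization the same differences were 1.06, 0.03, -0.27 and -0.70.

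**Figure D1:**
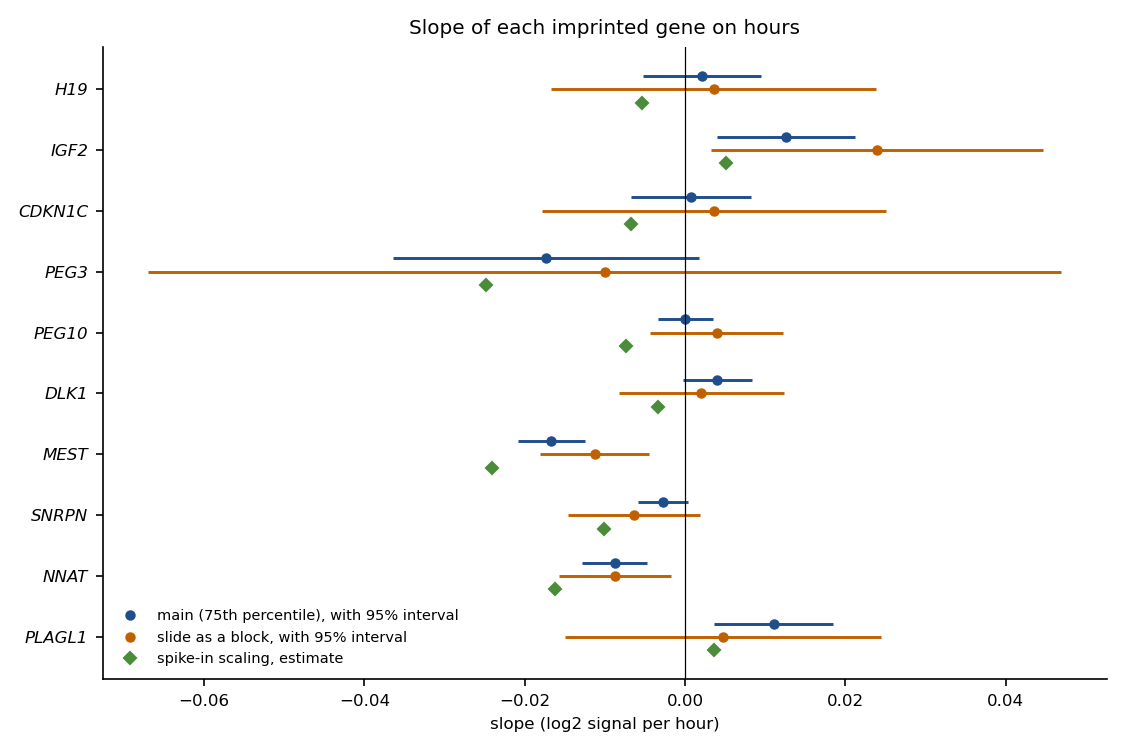
Slope of each gene on hours (log2 signal per hour) over the 19 arrays, with 95% intervals for the main scaling and with the slide as a block, and the estimate alone for the spike-in scaling. The intervals of *MEST* and *NNAT* lie below 0 in both fits and that of *IGF2* lies above 0 in both.

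*MEST*, which encodes an enzyme of the alpha/beta hydrolase family, and *NNAT*, which encodes the small membrane protein neuronatin, fell. *MEST* lay between 12160 and 14090 (median 13000) on the first slide and between 6736 and 9568 (median 8414) on the second, and was 6806, 6748, 7242, 6289 and 6377 at 48, 54, 60, 66 and 72 h. No array of the first slide overlapped with any later array. Its mean fell from 13150 at 3, 4 and 6 h to 6622 at 60, 66 and 72 h, 1.99-fold lower. The slope was -0.0167 log2 per hour (95% interval -0.0209 to -0.0125, adjusted p = 1.62e-06), and -0.0113 with the slide as a block (adjusted p = 0.037). *MEST* passed under every alternative over all slides, the spike-in scaling (-0.0241) included. Within single slides its slope was -0.0114, -0.0147 and -0.0048, with none passing.

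*NNAT* ranged from 18280 to 22380 (median 21280) on the first slide and from 13430 to 16290 (median 15370) on the second. On the third slide it was 14570, 15500, 15850, 14420 and 12750 from 48 to 72 h. As for *MEST*, every array up to 12 h was above every later one, and the arrays of both later slides overlapped. The mean of the last 3 arrays was 1.55-fold lower than that of the first 3, and the slope was -0.0088 (-0.0129 to -0.0047, adjusted p = 9e-04), or -0.0087 with the slide as a block (adjusted p = 0.11). Between 12 and 14 h, where the slide changes, the log2 signal stepped by -0.41 for *MEST* and by -0.33 for *NNAT*, the largest step between neighbouring arrays for both. At that step, slide and time cannot be told apart. On the 72 h array, the spots around the *MEST* spot stood 1.59 log2 above their own medians, while *MEST* itself was 0.43 below its own.

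*COPG2*, the neighbour of *MEST* on chromosome 7, which encodes a coat protein of Golgi vesicles, rose. It was between 1489 and 1977 (median 1602) on the first slide and between 1860 and 2086 on the third, with a slope of 0.0046 (adjusted p = 0.012), a value that the array median as scaling turned to -0.0001. *BLCAP*, in whose intron *NNAT* lies, did not pass for a straight line (slope -0.0019, adjusted p = 0.59). It was 1743 at 3 h, lowest with 935.2 at 36 h and 1349 at 72 h. Within the first slide *BLCAP* fell, with a slope of -0.0771 (adjusted p = 0.024).

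*IGF2*, the growth factor gene, rose late. It lay between 1123 and 1433 (median 1236) on the first slide and between 855.4 and 1200 (median 1085) on the second, and was 1004, 1245, 1610, 3170 and 2904 at 48, 54, 60, 66 and 72 h. Only the arrays at 60, 66 and 72 h were above all earlier ones. Over the whole course the slope was 0.0126 log2 per hour (0.0040 to 0.0212, adjusted p = 0.015) and the late mean was 1.86-fold the early mean, 2457 against 1320. Its slide-blocked slope was 0.0240 (adjusted p = 0.13). The straight-line rise rested on the last 2 arrays. Without 66 and 72 h the slope was 0.0002 (adjusted p = 0.96), without 66 h alone 0.0082 (0.083) and without 72 h alone 0.0084 (0.11). The cubic curve still passed without 66 and 72 h, as it did for 11715 of 16692 genes. From 3 to 54 h the cubic curve did not pass (adjusted p = 0.13). The 66 and 72 h arrays had the lowest 75th percentiles, 525.5 and 535.2 against 619.0 to 800.3 on the others. Before scaling, *IGF2* was also highest there, with 2297 and 2144 against at most 1491. Under the array median and the spike-in scaling the slope stayed above 0 and did not pass (0.0079 and 0.0052).

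The other *IGF2* probe was well above background on 1 array, that at 66 h, and was not tested. A probe of the *INS-IGF2* readthrough transcript was between 5.55 and 16.8 and was also too dim to test. *INS*, the neighbouring insulin gene, was near the detection limit, with a slope of 0.0102 (adjusted p = 0.0043) and a mean of 31.2 early and 45.5 late.

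*H19*, a long non-coding RNA made from the maternal copy beside *IGF2*, did not follow a straight line (slope 0.0021, -0.0052 to 0.0095, adjusted p = 0.63), and its cubic curve passed (adjusted p = 0.018). It was 531.5 at 3 h, between 421.0 and 531.5 (median 462.4) on the first slide and between 313.2 and 576.8 (median 390.5) on the second. On the third slide it was 343.2, 425.7, 386.9, 880.7 and 560.9. From 3 to 54 h, *H19* fell (slope -0.0089, adjusted p = 0.025, where 30.9% of all genes fell), and between 60 and 66 h it stepped up by 1.19 log2. Before scaling, its signal was 638.3 at 66 h and 636.7 at 24 h, so that the 66 and 24 h arrays stood level. The other *H19* probe was also highest at 66 h (560.0, against 247.4 at 60 h and 336.8 at 72 h) but was lowest at 24 h (180.5), where the brighter probe was high. At 24 h the 2 probes therefore disagreed. The 22 spots around the brighter probe then stood, by their median, 0.45 log2 above their own level, and the *H19* spot itself also 0.45. Around the other probe the spots were at -0.0055. The part of such a local brightness in the 24 h value was not tested. Before scaling, the second probe was 405.9 at 66 h and 426.5 at 6 h.

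The 66 h array was set against the arrays at 60 and 72 h. *H19* was 0.92 log2 above the mean of 60 and 72 h, a difference at least as high in 1.62% of the 16689 genes compared, and *IGF2* was 0.55 above it (5.37%), with 3170 at 66 h close to 2904 at 72 h and 1610 at 60 h. *DLK1* and *PLAGL1* were 0.26 and 0.36 above, and *CDKN1C* was 0.19 and *MEST* 0.11 below. Markers of endoderm moved with them: all 9 that were tested were higher at 66 h, with a median of 1.11 against 0.02 for all genes, among them *AFP* (1.41), *APOA1* (1.39) and *GATA6* (1.33). The summed signal of the 10 endoderm markers was 8786 on this array, against 3619 on the 60 h array, 4200 on the 72 h array and 3705 to 4355 on the first slide. *HNF4A*, another marker of that list, was well above background on no array. Of 8 mesoderm markers, 6 were higher, with *TBXT* (2.39) and *EOMES* (1.84) in front, while *TBX6* (-0.754) and *KDR* (-0.409) were lower. The summed signal of the mesoderm markers, 7284, lay between those at 60 h (9062) and 72 h (6886). Embryonic stem cell markers were also above 0 in 6 of 9, with a median of 0.102. Of 9 trophoblast markers, 6 were above 0, led by *CDX2* (3.24), *HAND1* (2.17), *CGA* (1.69) and *TFAP2A* (1.33). Their median was 0.204, and *GCM1* (-0.638), *CGB3* (-0.037) and *TFAP2C* (-0.018) were below 0. The part of such cells in the *H19* and *IGF2* values was not tested.

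*CDKN1C*, the maternally expressed inhibitor of cyclin-dependent kinases, was maintained at a high level and moved up and down without a passing trend. It was 20400, 19200, 13640, 10500, 11660 and 12340 from 3 to 12 h, between 10240 and 14940 (median 12570) on the second slide, and 10640, 11530, 23200, 15150 and 12770 on the third. The arrays at 3, 4 and 60 h were above all others. Its slope was 0.0007 (-0.0067 to 0.0082, adjusted p = 0.88), the cubic curve had an adjusted p of 0.18, and within the first slide the slope was -0.0926 (adjusted p = 0.12). The interval leaves room for a change of either sign.

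Genes of the same domain on chromosome 11 moved more than *CDKN1C* did. *PHLDA2*, a maternally expressed gene that restrains placental growth, was 12610, 12800, 9063, 7195, 5087 and 4568 on the first slide, and between 2072 and 3690 on all later arrays. It fell with a slope of -0.0217 (adjusted p = 0.014). Within the first slide alone, where 3.28% of all genes fell, its slope was -0.1804 (adjusted p = 0.022). With the slide as a block its straight line was near 0 (-0.0038, adjusted p = 0.89) but its cubic curve passed (adjusted p = 2e-05). *KCNQ1OT1*, the paternally expressed non-coding RNA that silences this domain in cis, was 319.0, 311.1 and 249.8 at 3, 4 and 6 h, between 469.6 and 531.7 from 8 to 12 h and between 470.2 and 1060 afterwards. Its slope was 0.0167 (adjusted p = 0.0061), and 0.0067 with the slide as a block (adjusted p = 0.76). *KCNQ1*, a potassium channel gene in which *KCNQ1OT1* lies antisense, went up and down again, from 598.6 at 3 h to 1523 at 32 h and 602.2 at 72 h, with a passing cubic curve with the slide as a block (adjusted p = 0.0046). How well the labelling kept antisense strands apart is not given in the sources used here.

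*DLK1* encodes a membrane and soluble relative of the NOTCH ligands. Its brighter probe spanned 0.80 log2 from its lowest to its highest array. The brighter probe lay between 594.5 and 707.8 (median 650.9) on the first slide, between 531.0 and 642.7 (median 574.2) on the second, and was 575.8, 707.7, 741.9, 922.8 and 800.2 on the third. The 60, 66 and 72 h arrays were above all earlier ones. Its straight line did not pass (slope 0.0040, -0.0003 to 0.0083, adjusted p = 0.11) and its cubic curve did (adjusted p = 6.8e-04). Before scaling, the 66 h signal was 668.8, below that at 4 h (718.0) and 6 h (710.1), so that its place on top came with the scaling. The other probe went from 292.6 at 3 h to 460.5 at 72 h, had its highest value of 518.7 at 28 h, and passed (slope 0.0050, adjusted p = 0.032), so the 2 probes shared a sign and differed in shape. Under the array median the slopes were -0.0007 and 0.0002 and neither passed. On the 14 and 16 h arrays the 14 spots around the brighter probe stood 2.20 and 3.97 log2 above their medians, while the *DLK1* spot itself deviated by 0.0 and 0.0017.

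*MEG3*, the maternally expressed non-coding RNA of the same domain, was between 1595 and 1770 (median 1726) on the first slide, 3303 at 14 h, and between 2273 and 3303 on all later arrays. The groups of arrays before and after the slide change did not overlap. Its slope was 0.0077 (adjusted p = 0.033), 0.0030 under the array median as scaling (adjusted p = 0.30), and -0.0063 with the slide as a block (adjusted p = 0.33), and slide and time cannot be told apart at that step. *RTL1*, a paternally expressed gene of the domain, was well above background on no array.

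*SNRPN*, which encodes a protein of the splicing machinery, was maintained at a high level. It was between 19020 and 21770 (median 19940) on the first slide, between 17260 and 19760 (median 18700) on the second, and 20010, 21240, 19860, 17650 and 14380 from 48 to 72 h. The 72 h array was the lowest of the 19 and all others overlapped between slides. The straight line did not pass (slope -0.0027, -0.0058 to 0.0004, adjusted p = 0.13) whereas the cubic curve did (adjusted p = 0.0013), also with the slide as a block (0.010). Without the 66 and 72 h arrays the slope was -0.00002. With the array median as scaling, *SNRPN* passed as falling (slope -0.0074, adjusted p = 0.0067).

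*SNURF* shares a transcription start and transcripts with *SNRPN*, so that the signal of one cannot be fully parted from that of the other. *SNURF* fell (slope -0.0064, adjusted p = 0.0038). It was between 22030 and 23130 on the first slide, between 16930 and 18870 on the second, and 20100, 20300, 18610, 15580 and 14220 on the third. *UBE3A*, a ubiquitin ligase gene expressed from the maternal copy in neurons, was 984.4 and 972.6 at 66 and 72 h against 1240 to 1658 on all other arrays, and fell (slope -0.0061, adjusted p = 0.011). *SNRPN*, *SNURF* and *UBE3A* were thus each lowest at 72 h, on the array with 53.8% of probes well above background, the lowest share of the third slide. 2 intronless genes of the same region of chromosome 15 rose, *MAGEL2* (slope 0.0069, adjusted p = 0.023) and *NPAP1* (0.0074, 0.0046), and both lost this under the array median as scaling (0.0022 and 0.0027). *NDN* did not pass (slope -0.0033, adjusted p = 0.10).

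*PEG10*, a gene derived from a retrotransposon and needed for the placenta, showed no passing straight trend. It lay between 3452 and 4378 (median 3766) on the first slide, between 2943 and 3650 (median 3422) on the second, and was 3529, 3708, 4107, 3874 and 3257 on the third. Its slope was 0.00004 (-0.0034 to 0.0035, adjusted p = 0.99), and it moved with the scaling, to -0.0047 under the array median and to 0.0044 after quantile normalization, where it passed (adjusted p = 0.022). The largest step, -0.47 log2, came between 12 and 14 h with the change of slide. In the same domain *SGCE* was 3471 to 4254 over all arrays (slope 0.0001, but -0.0046 with an adjusted p of 0.023 under the array median), *PPP1R9A* rose late (slope 0.0064, adjusted p = 0.020) and *TFPI2*, which encodes an inhibitor of proteases, fell (slope -0.0095, adjusted p = 5e-04).

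*PEG3*, which encodes a zinc finger protein, was low and had 3 high arrays. It was 634.1, 772.8 and 838.8 at 6, 8 and 16 h, and between 91.3 and 238.4 on the other 16 arrays. The spots around it were high on 2 of the same arrays. The 23 spots within 2 rows and columns stood, by their median, 2.602 log2 above their own level over the course at 6 h and 1.65 at 8 h, with *PEG3* itself at 2.17 and 2.46. At 16 h the spots around were at 0.83 and *PEG3* at 2.58, and on the remaining arrays they were between -0.41 and 0.39. The part of such a local brightness in the 3 *PEG3* values was not tested. The slope over 19 arrays was -0.0174 (-0.0365 to 0.0017, adjusted p = 0.12), and it passed under the array median (-0.0221, adjusted p = 0.042) and spike-in scaling (-0.0248, 0.026). Without the arrays at 6, 8 and 16 h it was -0.0022 (adjusted p = 0.70). The other *PEG3* probe was well above background on no array, and neither was *USP29*, a gene of the same domain.

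*PLAGL1*, which encodes a zinc finger regulator of the cell cycle and of other imprinted genes, was close to the detection limit. It was well above background at 12 h, from 28 to 66 h, and on no other array, with 44.2 at 12 h and from 35.4 to 65.5 between 28 and 66 h. The slope was 0.0110 (0.0036 to 0.0184, adjusted p = 0.014). No early array and 2 of the 3 late arrays were well above background. The late mean was 1.502-fold the early mean, 41.8 against 27.9, a size that is imprecise at such dim signals. This difference was 0.59 log2, but 0.003 under the spike-in scaling and -0.004 after quantile normalization. It passed neither with the slide as a block (0.0047, adjusted p = 0.80), nor under the array median (0.0063) or spike-in scaling (0.0036). *HYMAI*, the non-coding RNA that starts at the same imprinted promoter, was between 24.9 and 62.6 and did not pass (slope -0.0042, adjusted p = 0.40).

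The 9 genes detected on all arrays did not move as 1 group. Over their 36 pairs, Pearson's r across the 19 arrays ran from -0.48 to 0.88 with a median of 0.19, given here as a description, since these arrays share slides, scaling and time. 3 pairs were above 0.7: *MEST* with *NNAT* (0.88, and 0.38 after removing the mean of each slide), *IGF2* with *DLK1* (0.83, and 0.58 without the 66 and 72 h arrays) and *IGF2* with *H19* (0.76, and 0.41 without them). Among the 13967 genes detected on all arrays, the courses most like that of *MEST* were *CCT2*, *REC8* and *KARS1* (r = 0.98 each). Those most like *IGF2* were *TUBGCP4* (0.94), *IFITM4P* (0.93) and *IFITM1* (0.93). *NNAT* was closest to *POLR2I* (0.95), *DLK1* to *PIERCE2* (0.91), *SNRPN* to *NRBP1* (0.88), *CDKN1C* to *CLOCK* (0.87), *PEG10* to *SUMF2* (0.86), *H19* to *HBA2* (0.83) and *PEG3* to *MAST4* (0.76).

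Beside the 10 genes, 44 other imprinted genes were looked up, of which 38 had a probe and 30 could be tested. 10 of them rose (33.3%, against 21.3% of all genes) and 8 fell (26.7%, against 32.7%). With the slide as a block 0 rose (4.22% of all genes) and 2, *GNAS* and *ZNF331*, fell (5.33%). With the array median as scaling 2 of the 30 rose (9.78% of all genes) and 12 fell (46.1%). With the spike-in RNA 1 rose (3.59% of all genes) and 11 fell (44.5%). The largest rises were those of *L3MBTL1*, a chromatin protein gene (335.2 to 774.6, slope 0.0183, adjusted p = 3.2e-04), *KCNQ1OT1*, and *TP73*, a relative of p53 (54.42 to 95.01, slope 0.0149, adjusted p = 0.0064). The largest falls were those of *PHLDA2*, *TFPI2* and *GNAS*, which encodes a G protein subunit (90640 to 59560, slope -0.0097, adjusted p = 4.3e-06). By the parental copy known for each gene, 5 of 14 tested paternal genes rose (35.7%) and 2 fell (14.3%). Of 10 tested maternal genes 4 rose (40.0%) and 3 fell (30.0%), beside 21.3% and 32.7% of all genes. *UBE3A*, counted among the maternal genes that fell, is known as maternal in neurons. Both lists held genes of either direction, and with the slide as a block 0 genes of either list rose or fell. Which copy was in use was not measured.

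A list of genes around imprint maintenance also held de novo methyltransferases and the *TET* genes, whose enzymes act in removing DNA methylation. The counts are therefore not those of genes that protect imprints alone. Of its 14 genes tested, 7 fell (50.0%, against 32.7% of all genes), 2 rose (14.3%, against 21.3%) and 5 did not pass. Their median slope was -0.0050, and -0.0012 for all genes. *UHRF1*, which brings the maintenance methyltransferase to newly made DNA, went from 3699 to 1404 (slope -0.0235, adjusted p = 5.2e-05). *DPPA3*, known to guard imprints in the early embryo, went from 367.9 to 150.2 (slope -0.0273, adjusted p = 1.9e-05). *DNMT3A*, a de novo methyltransferase gene, went from 11730 to 5135 (slope -0.0191, adjusted p = 3.1e-06), and with *DNMT3B* it was 1 of the 2 that also fell with the slide as a block (adjusted p = 0.032 and 0.027, where 5.33% of all genes fell). *ZNF445* and *TET2* rose (slopes 0.0042 and 0.0087) and no longer did so under the array median as scaling. *ZFP57* did not pass (slope 0.0074, adjusted p = 0.35).

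In the IGF axis, of 14 genes tested 4 fell (28.6%, against 32.7% of all genes) and 2 rose (14.3%, against 21.3%), both shares below the background. *IGF2R*, the receptor that clears IGF2, fell from 1931 to 1381 (slope -0.0078, adjusted p = 7.5e-05), and *IGF1R*, the receptor that signals for it, from 4915 to 4155 (slope -0.0048, adjusted p = 0.042). *INSR* did not pass (slope 0.0030, adjusted p = 0.19). *IGFBP5*, a binding protein gene, fell from 227.4 to 59.0 (slope -0.0262, adjusted p = 8.1e-05), and *IGF2BP1*, whose protein binds the *IGF2* messenger, fell from 18750 to 10920 (slope -0.0135, adjusted p = 1.2e-04) and did so with the slide as a block (adjusted p = 0.015). *IRS2* and *IRS1*, adaptors of the receptors, rose (slopes 0.0122 and 0.0039) but not under the array median as scaling. *IGF1* itself was well above background on 1 array.

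The labelled cell type was checked against its markers. All 9 embryonic stem cell markers with a probe were well above background on every array, 5 of them fell and 0 rose, and their summed signal went from 715700 to 798700 on the first slide to 532900 to 573800 on the third. Of the fibroblast markers, 1 of 7 tested rose and 3 fell, and *COL6A3* and *FBN1* were detected on no array. Their summed signal was 35220 to 48140 on the first slide and 28800 to 49170 on the third. *THY1* alone made up 33700 of the 49170 at 72 h, so the sum does not measure fibroblast content. Of all genes tested, 21.3% rose and 32.7% fell. Among the other markers tested, 4 of 8 mesoderm markers rose, 5 of 9 trophoblast markers rose and 2 fell, 3 of 9 endoderm markers rose and 3 fell, 4 of 5 neural markers fell, and 1 of 5 blood and endothelial markers rose and 2 fell. The part of other cells in the trends of the imprinted genes was not tested.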

How the data were processed

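RNA of 19 samples was measured, each on 1 array. The authors deposited the Agilent Feature Extraction 10.10.1.1 output of each array, whose processed signal is a background-subtracted intensity per spot, not scaled between arrays, and a table of intensity values that was found to be this signal times 1 factor per array (0.905 to 1.38), with spots not well above background left blank. From these files, flagged spots (0.632%) were left out, spots of a probe were averaged, and log2 intensity minus the 75th percentile of the array over 50683 probes was used. 28170 probes were matched through RefSeq accessions to symbols on GRCh38.p14. No spot was saturated.

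Slopes on hours and cubic curves were fitted with limma 3.58.1 (lmFit, eBayes) in R 4.3.3 over 32113 probes, each detected (well above background) on 5 or more arrays, with Benjamini-Hochberg adjustment over all of them. A gene stands for its brightest probe. On simulated data the slope test recovered 85 of 100 probes at 0.02 log2 per hour and 98 of 100 at 0.04, with 15 false calls. Every followed imprinted gene had a main slope smaller in size than 0.02, the steepest being -0.0174 (*PEG3*, not passing) and -0.0167 (*MEST*). Recovery at such slopes was not tested. The false calls are those of the simulated data, and do not measure false calls on the arrays, where slide and time overlap. The number of arrays limits the precision. Tables were made with Python 3.11.15, numpy 2.4.6, pandas 2.3.3 and scipy 1.17.1, and figures with matplotlib 3.10.9.

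The 10 genes and all gene lists were chosen with earlier results of these data known. Named besides the 10 genes were genes of their domains, the 3 largest passing rises and falls of a list, receptors of IGF2, and the 3 genes most like each in course. The alternatives were other scalings, normexp with quantile normalization, the deposited table, other filters on dim probes, log2 hours, the slide as a block or alone, 3 to 54 h, the mean of a gene's probes and each array left out in turn. Chosen after seeing the data were the deposited table without further scaling, the percentile over spots, and leaving out 6, 8 and 16 h or 66 and 72 h. Blots, quantitative PCR and later stages were not analysed here.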

Additional observations from a re-analysis of the deposited data

How the results depend on the processing

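No paired analysis was possible because a single array stands for every time point. The counts of the 10 genes that rose (2), fell (2) or changed in any shape (8) moved with these settings. Rising became 0 under the array median, 0 under the spike-in RNA, 0 with the slide as a block, and 1 with probes detected on all 19 arrays, with log2 hours, from 3 to 54 h, with the deposited table without further scaling and without the 66 and 72 h arrays. Falling became 4 under the array median, 1 with the deposited table and 1 with the slide as a block, and changes in any shape became 3 with that block and 4 from 3 to 54 h. Of the other imprinted genes (10 rising, 8 falling), 2 rose under the array median, 1 under the spike-in RNA and 0 with the block, and 3 fell with the deposited table, 2 with the block and 5 from 3 to 54 h. The counts of all genes moved with the settings too. In the main setting, 3556 of 16692 genes rose and 5459 fell. When the deposited table was used, 4368 of 16693 rose and 2510 fell. With log2 hours 3557 of 16692 rose, and with probes detected on all 19 arrays 2830 of 13967 did. With the deposited table without further scaling, 3350 of 16693 rose. From 3 to 54 h, a cubic curve passed for 11127 of 16692, against 13271 in the main setting. Leaving out each array in turn gave 1 to 2 rising (1 without 66 h or without 72 h, when *IGF2* no longer passed), 2 to 2 falling and 6 to 8 changed among the 10 genes. Among the other imprinted genes it gave 8 to 10 rising and 7 to 8 falling. Slopes that turned sign were those of *H19* (-0.0026 median, -0.00532 spike-in, -0.0161 log2 hours, -0.00887 from 3 to 54 h, -0.00741 without 66 and 72 h, -0.0314 and -0.0132 within the first and the second slide), *IGF2* (-0.00425 from 3 to 54 h, -0.0205 first slide) and *CDKN1C* (-0.004 median, -0.00671 spike-in, -0.0406 log2 hours, -0.00706 from 3 to 54 h, -0.000728 without 6, 8 and 16 h, -0.0926 first slide). So did those of *PEG3* (0.0171 and 0.02 within the first and the third slide), *PEG10* (-0.00469 median, -0.00741 spike-in, -0.0203 log2 hours, -0.00121 from 3 to 54 h, -0.000411 without 6, 8 and 16 h, -0.0146 and -0.0028 within the first and the third slide) and *DLK1* (-0.00069 median, -0.0034 spike-in, -0.00277 from 3 to 54 h, -0.000219 without 66 and 72 h, -0.00303 and -0.00821 within the first and the second slide). The values for log2 hours are log2 signal per doubling of the hours, and their size does not compare with slopes per hour. *SNRPN* turned to 0.00329 with quantile normalization, 0.000928 with the deposited table and 0.00155 within the second slide. *PLAGL1* turned to -0.0209 within the third slide, and its late minus early change to -0.004 log2 with quantile normalization. Without single arrays the slope ran from -0.0027 to 0.00324 for *H19*, from -0.00247 to 0.00288 for *CDKN1C* and from -0.000762 to 0.00102 for *PEG10*, and kept its sign for the other 7 genes. *NNAT* missed the threshold with the deposited table (-0.00516, adjusted p = 0.152). The causes were not tested. *PLAGL1* was near background, and no time point has a second array.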

Other observations

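Beside *CDKN1C*, the other genes of its family of cell cycle inhibitors were *CDKN1A*, which encodes p21, and *CDKN1B*, which encodes p27. *CDKN1A* was between 59.3 and 149.1 on the first slide and between 22.5 and 116.4 on the second, and was 49.7, 104.8, 424.0, 361.5 and 408.7 on the third. The last 3 arrays were above all earlier ones. *CDKN1A* rose (slope 0.0320 log2 per hour, adjusted p = 0.010), also with the slide as a block (0.0775, adjusted p = 0.024) and under the spike-in scaling (0.0245). *CDKN1B* was level, with 1173 early and 1189 late (slope 0.0014, adjusted p = 0.71). At 60 h, the first of the arrays with high *CDKN1A*, *CDKN1C* also had its highest value, but *CDKN1C* did not stay there.

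Of 6 genes around NOTCH, the receptor family that DLK1 is related to through its ligands, 4 fell (66.7%, against 32.7% of all genes) and 1 rose (16.7%, against 21.3%). *NOTCH2* fell from 7466 to 3104 (slope -0.0202, adjusted p = 7.8e-10), also with the slide as a block (adjusted p = 0.0026). *HEY1*, a target of NOTCH signalling, fell from 573.4 to 189.8, *DLK2*, the closest relative of *DLK1*, from 738.6 to 245.9, and *NOTCH3* from 25180 to 15810, and none of these passed with the slide as a block. *NOTCH1* rose (slope 0.0065, adjusted p = 0.038) but was at -0.0009 under the spike-in scaling. Of 15 adipocyte regulators, 11 could be tested, of which 2 rose (18.2%, against 21.3% of all genes) and 1 fell (9.09%, against 32.7%), both shares below the background. *PPARG*, the master regulator of adipocytes, was well above background on no early array, so that the size of its rise is imprecise. Its mean signal was 2.40-fold higher late (45.4 against 18.9, adjusted p = 9.8e-05 for the slope, and 0.071 with the slide as a block). *CEBPA* rose (slope 0.0098, adjusted p = 0.023) and *ZNF423* fell (-0.0128, adjusted p = 2.5e-04). *FABP4* and *ADIPOQ*, genes of mature adipocytes, were well above background on no array.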
